A study of Mus musculus with 6 samples.

Results

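The insulin-like growth factor (IGF) ligands, their receptors and their binding proteins were examined in primary adipocytes of mouse inguinal white adipose tissue (iWAT, a subcutaneous fat depot) that received miR-182-5p or a control. The 10 genes were chosen by symbol from the 22609 listed in the deposited read counts: the ligands Igf1 and Igf2, the receptors Igf1r and Igf2r, and the binding proteins Igfbp2, Igfbp3, Igfbp4, Igfbp5, Igfbp6 and Igfbp7. All 10 had enough reads to be among the 13117 genes tested. The cells were stromal vascular cells isolated from the inguinal fat of male C57BL6 mice, aged 3 weeks by the sample labels, and differentiated in culture. In 3 libraries the cells had received a control vector, and in the other 3 libraries miR182, which the labels say was delivered by electroporation. The study's methods name a miRNA mimic, a lipid reagent and an older age. Both groups shared strain, sex, age and culture, and no gene deletion or reporter is named. The labels number the libraries 1 to 3 in each group without saying whether they came from separate animals or cultures, so p-values measure the spread between these libraries, which may be technical. The libraries were made from poly(A) RNA and held 25869810 to 26484794 reads on genes in control adipocytes and 25960631 to 28796712 in miR-182-5p adipocytes. Mature miRNAs carry no poly(A) tail, and the Mir182 gene was listed at 0 reads in all 6 libraries, so the labels could not be checked by the introduced miRNA.

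IGF1 and IGF2 are small secreted hormones that signal through the IGF1 receptor, a tyrosine kinase closely related to the insulin receptor. The IGF2 receptor, also known as the cation-independent mannose 6-phosphate receptor, has no kinase: it takes up IGF2 for degradation and sorts lysosomal enzymes. Most IGF in the body is held by secreted binding proteins (IGFBPs), which carry the hormone, keep it from the receptor or release it when proteases cut them, and in adipose tissue IGF1 signalling promotes the differentiation of preadipocytes. IGFBP7 binds IGFs only weakly and differs in this from IGFBP2 to IGFBP6.

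A miRNA pairs with messenger RNA mainly through its seed, bases 2 to 8. The mature miR-182-5p of the mouse in RefSeq (GRCm38.p6) is encoded at chr6:30165962-30165986 on the minus strand. It is shown because its seed, in capitals, defines the sites described next. The study's methods print, for its PCR assay, another mature sequence with another seed, which was not searched here, so every site and share below rests on the RefSeq sequence.
mmu-miR-182-5p: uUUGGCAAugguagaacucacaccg

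The 7-base match to this seed in a transcript is TTGCCAA, and an A after it gives the 8-base match TTGCCAAA. The longest annotated 3′-UTR of 3 of the 10 IGF family genes held at least 1 such match (GENCODE M21, GRCm38), compared with 12.5% of the 12517 tested genes with a 3′-UTR. The sense strand of the UTR alone was searched. An 8-base match was found in 2 of the 10, compared with 5.24% of these genes. The median 3′-UTR length was 2124 bases in the family and 1201 bases over all these genes, and a longer UTR has more room for a match. The counts were made on the older mm9 build, and no mm9 reference was used here, so the positions below are those of GRCm38. Each site is shown with 10 bases before it and 5 after it and with the match in capitals, since these are the 7-base and 8-base matches found in the family's 3′-UTRs.
Igf1 (chr10:87932447-87932453, plus strand): aagaagatccTTGCCAAgtaaa
Igf1 (chr10:87932596-87932603, plus strand): tctactcagtTTGCCAAAcacaa
Igf1r (chr7:68227073-68227080, plus strand): gctgccatttTTGCCAAAatcct
Igfbp5 (chr1:72859904-72859910, minus strand): tgactgagatTTGCCAAgtgga

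In Igf1 the 2 matches began 1713 and 1862 bases into a 3′-UTR of 6308 bases. In Igf1r the match began at base 672 of 7267, and in Igfbp5 at base 2467 of 4445. A search for TGCCAAA, the match to bases 2 to 7 followed by A, which overlaps TTGCCAAA in all its bases, was added after the first count was known. It found 1 further place, in Igf1r at base 5943, and no further family gene, whereas 20.4% of all 12517 genes held either 7-base match. The 3′-UTRs of Igf2, Igf2r, Igfbp2, Igfbp3, Igfbp4, Igfbp6 and Igfbp7 did not hold these letters. In the coding sequences TTGCCAA occurred once, in Igf2, and 5′-UTRs were not searched. A match is a description of the sequence and does not show that the miRNA bound there.

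**Figure D1:**
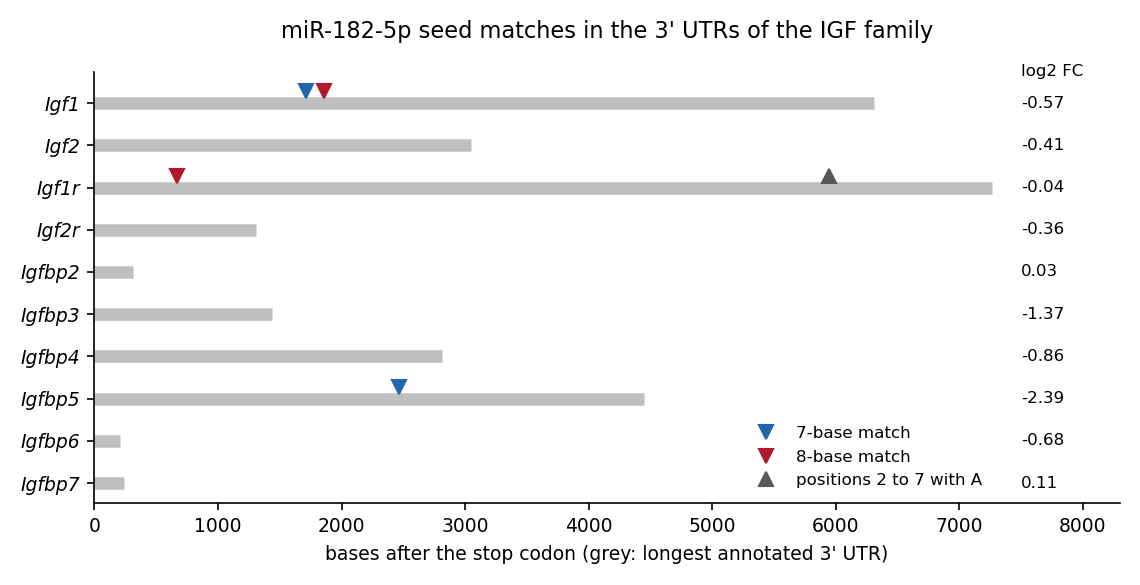
Position of miR-182-5p seed matches in the longest annotated 3′-UTR of each IGF family gene, in bases after the stop codon. Grey bars are the UTRs, triangles are the matches, and the log2 fold change of each gene stands on the right: the genes with a match, Igf1, Igf1r and Igfbp5, had log2 fold changes of -0.57, -0.04 and -2.39.

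The comparison asked how the IGF family's transcripts differed between miR-182-5p and control adipocytes. The binding proteins Igfbp5, Igfbp3, Igfbp4 and Igfbp6 fell to between 19.1% and 62.6% of control, the ligand Igf1 and the receptor Igf2r fell less, Igfbp7 rose by a small amount, and Igf2, Igf1r and Igfbp2 did not pass the test. A gene passed at an adjusted p under 0.05 (edgeR's quasi-likelihood test, Benjamini-Hochberg over all 13117 genes) and was called when it also changed by 1.5-fold or more, a log2 fold change beyond 0.585 in either direction. Of the 10 family genes 7 passed, 6 lower and 1 higher, where 46.7% of all genes tested passed, 23.5% lower and 23.2% higher. Of the 10, 4 were called and all 4 were lower, where 7.45% of all genes tested were called, 5.48% lower and 1.97% higher. Those 4 were binding proteins, out of 6 in the family, and none of the 4 ligands and receptors was called. The median log2 fold change of the 10 genes was -0.49, compared with -0.0043 over all genes tested. In 8 of the 10 genes the values of the 2 groups did not overlap, as in 54.8% of all genes tested. All levels are given as CPM, the reads of a gene scaled to the library size after TMM normalization.

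**Figure D2:**
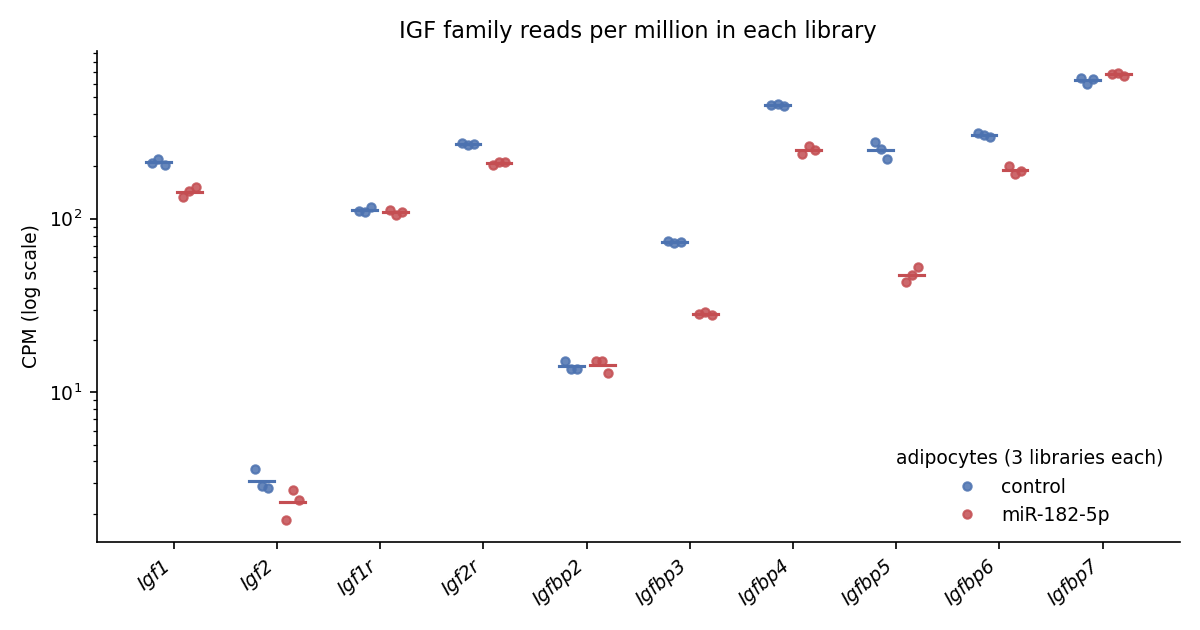
CPM of each IGF family gene in each library, on a log axis. Points are the 3 control (blue) and 3 miR-182-5p (red) libraries and bars their means: Igfbp5 shows the widest gap between the groups, and the points of Igf1r and Igfbp2 intermingle.

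Igfbp5, which encodes a binding protein that also attaches to extracellular matrix, showed the largest change of the family. It had 275.1, 252.4 and 221.4 CPM in control libraries 1 to 3 and 43.09, 47.37 and 52.67 CPM in miR-182-5p libraries 1 to 3. Every miR-182-5p library lay far below every control library, and the spread within a group was small beside the gap. The mean fell from 250 ± 27.0 to 47.7 ± 4.80 CPM (SD, n = 3 each), to 19.1% of control. The log2 fold change was -2.39 (standard error 0.075, 95% interval -2.55 to -2.23, edgeR adjusted p = 1.29e-11), a 5.23-fold decrease. By log2 fold change Igfbp5 stood at place 5 from the lowest of the 13117 genes. It is the called family gene whose 3′-UTR held a 7-base match.

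Igfbp3 encodes the main carrier of IGFs in blood, where it joins the acid-labile subunit in a complex with the hormone. Its values were 74.29, 72.14 and 73.14 CPM in control adipocytes and 28.09, 28.85 and 28.02 CPM in miR-182-5p adipocytes. Replicates lay close together and the groups were well apart. The mean fell from 73.2 ± 1.08 to 28.3 ± 0.459 CPM (SD, n = 3 each), and its log2 fold change was -1.37 (standard error 0.041, 95% interval -1.46 to -1.28, edgeR adjusted p = 9.08e-12). By p value it ranked at 16 of the 13117 genes. No seed match was found in its 3′-UTR of 1435 bases.

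Igfbp4 encodes a binding protein that mostly keeps IGF from the receptor until the protease PAPPA cuts it. Control libraries held 454.7, 461.0 and 443.8 CPM and miR-182-5p libraries 237.2, 263.7 and 250.2 CPM. The groups did not overlap. The log2 fold change was -0.86 (standard error 0.036, 95% interval -0.93 to -0.78, edgeR adjusted p = 2.54e-10), a 1.81-fold decrease.

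Igfbp6 encodes a binding protein that prefers IGF2 to IGF1. It had 311.8, 303.5 and 297.1 CPM in control libraries and 201.1, 182.2 and 187.9 CPM in miR-182-5p libraries, again without overlap. Its log2 fold change of -0.68 (standard error 0.036, 95% interval -0.75 to -0.60, edgeR adjusted p = 3.08e-09) lay just past the 1.5-fold line. A test against that line itself, edgeR's glmTreat, called Igfbp3, Igfbp4 and Igfbp5 but not Igfbp6. Igfbp4, with a 3′-UTR of 2813 bases, and Igfbp6, with 209 bases, held no seed match there.

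The other 2 binding proteins did not fall. Igfbp2, whose product can also bind integrins at the cell surface, had 15.09, 13.63 and 13.68 CPM in control libraries and 15.24, 15.14 and 13.00 CPM in miR-182-5p libraries. These values overlapped, and the log2 fold change was 0.03 (standard error 0.077, 95% interval -0.13 to 0.20, edgeR adjusted p = 0.749), on 356 to 445 reads per library. Igfbp7, the weak IGF binder, had 646.8, 595.6 and 640.4 CPM in control libraries and 678.9, 690.4 and 666.3 CPM in miR-182-5p libraries. It rose by a log2 fold change of 0.11 (standard error 0.034, 95% interval 0.04 to 0.19, edgeR adjusted p = 0.0139). It no longer passed without control library 2 (edgeR adjusted p = 0.0752) or without miR-182-5p library 2 (edgeR adjusted p = 0.0552). Of the 1209 exon bases of Igfbp7, 85 are shared with Polr2b on the opposite strand. The libraries kept strand, but whether the counting used it is not given in the sources used here.

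**Figure D3:**
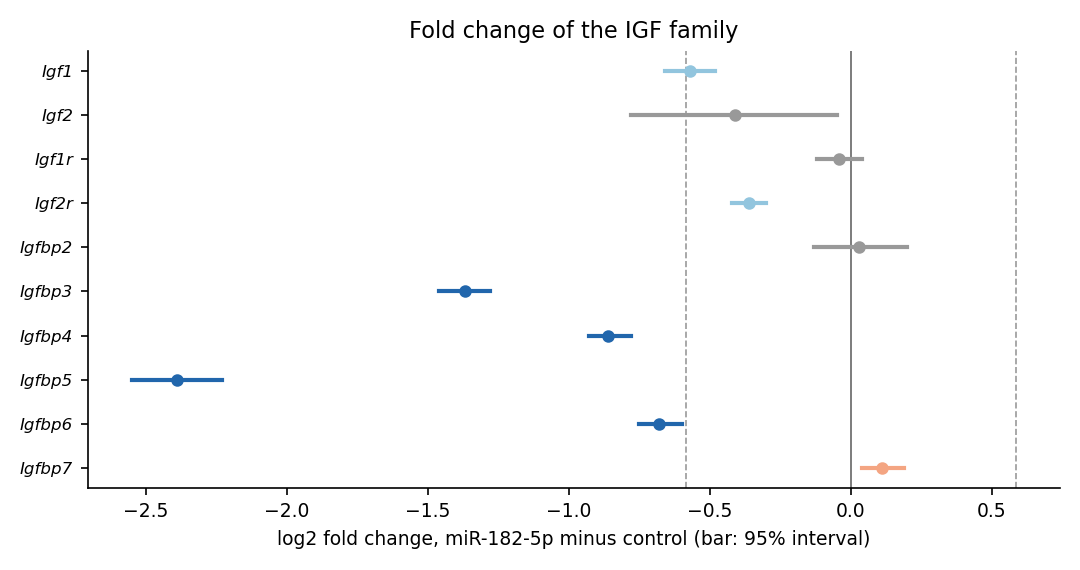
Log2 fold change of each IGF family gene, miR-182-5p minus control, with its 95% interval from edgeR's quasi-likelihood fit (n = 3 each). Dashed lines mark a 1.5-fold change, dark blue genes passed both cutoffs, light blue and orange genes passed the adjusted p alone (lower and higher), and grey genes did not pass: the 4 dark genes are Igfbp3, Igfbp4, Igfbp5 and Igfbp6.

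Of the ligands, Igf1 was the more abundant. It had 210.6, 220.8 and 204.6 CPM in control libraries and 132.6, 144.2 and 151.7 CPM in miR-182-5p libraries, and the groups did not overlap. The mean fell from 212 ± 8.21 to 143 ± 9.59 CPM (SD, n = 3 each), and its log2 fold change was -0.57 (standard error 0.043, 95% interval -0.66 to -0.48, edgeR adjusted p = 1.32e-07). This 1.48-fold decrease fell just short of the 1.5-fold line, and Igf1 was called when control library 3 (log2 fold change -0.60) or miR-182-5p library 3 (-0.61) was left out. Its 3′-UTR held 2 of the sites shown above.

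Igf2, the growth factor made mainly before birth, had the fewest reads of the family. Its 54 to 92 reads per library gave 3.614, 2.872 and 2.797 CPM in control adipocytes and 1.850, 2.733 and 2.409 CPM in miR-182-5p adipocytes. The highest miR-182-5p value lay just under the lowest control value. The log2 fold change was -0.41 with a wide interval (standard error 0.17, 95% interval -0.78 to -0.05, edgeR adjusted p = 0.0595), so Igf2 did not pass. It passed when miR-182-5p library 2 was left out (log2 fold change -0.54, edgeR adjusted p = 0.0343). Of its 5723 exon bases, 3596 are shared in GENCODE M21 with a gene on the same strand, Gm49394, and 98 with the antisense gene Igf2os. The deposited lists name the antisense transcript Igf2as, at 0 or 1 read per library.

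The receptors behaved differently from each other. Igf1r, which encodes the signalling receptor, had 110.5, 109.0 and 116.3 CPM in control libraries and 112.5, 104.9 and 109.2 CPM in miR-182-5p libraries. The groups overlapped, and the log2 fold change was -0.04 (standard error 0.035, 95% interval -0.12 to 0.04, edgeR adjusted p = 0.385). Its 3′-UTR held an 8-base match and, elsewhere, TGCCAAA. Whether the miRNA acts on Igf1r was not tested. Over the 656 tested genes with an 8-base match the median log2 fold change was -0.168, and 47.6% passed with a lower value, compared with a median of 0.007 and 22.1% among the 10948 genes without a 7-base match. Over the 1569 genes with a 7-base match, which include those 656, the median was -0.069 and 37.0% passed with a lower value. Igfbp5 and Ghr held a 7-base match without the 8-base form, and genes of that kind were not counted apart. These shares are a description of all genes and no test was made of them. Genes with and without a match were not matched for 3′-UTR length or read depth.

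Igf2r, which encodes the receptor that clears IGF2, had 273.1, 266.3 and 268.6 CPM in control libraries and 203.5, 213.5 and 213.1 CPM in miR-182-5p libraries. The groups did not overlap. The mean fell from 269 ± 3.43 to 210 ± 5.66 CPM (SD, n = 3 each), and its log2 fold change was -0.36 (standard error 0.029, 95% interval -0.42 to -0.30, edgeR adjusted p = 2.34e-07), a 1.28-fold decrease short of the 1.5-fold line. M6pr, the gene of the smaller, cation-dependent mannose 6-phosphate receptor, which sorts lysosomal enzymes but does not clear IGF2, rose from 116 to 129 CPM (log2 fold change 0.15, edgeR adjusted p = 0.00111).

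Levels of different genes can be compared only per length, so CPM was divided by the length of the longest coding transcript in kilobases (kb). In control adipocytes Igfbp7 stood highest at 523 ± 23.3 CPM per kb (SD, n = 3), followed by Igfbp6 at 273 ± 6.64, Igfbp4 at 118 ± 2.27 and Igfbp5 at 41.6 ± 4.49. Igf2r (30.3), Igfbp3 (30.2) and Igf1 (30.1) came next and could not be ordered beyond their spread at this length. They were followed by Igfbp2 at 10.8, Igf1r at 9.81 and Igf2 at 0.655 CPM per kb, and these neighbours did not overlap. In miR-182-5p adipocytes Igfbp7, Igfbp6 and Igfbp4 kept the first places at 565, 171 and 65.4 CPM per kb. Igfbp5 stood at place 4 in control adipocytes and at place 9 in miR-182-5p adipocytes, at 7.94 ± 0.799 CPM per kb (SD, n = 3). Igfbp3 (11.7) and Igfbp2 (11.1), well apart in control adipocytes, overlapped in miR-182-5p adipocytes. With the length of all annotated exons, a choice made after seeing the data, Igfbp5 stood at place 7 there. It overlapped Igfbp2 at place 8 (7.94 and 7.83 CPM per kb), so they could not be ordered beyond their spread. By this length Igfbp3 and Igfbp2 did not overlap. In control adipocytes Igf2r, Igfbp3 and Igf1 then came apart in that order at 28.9, 23.4 and 21.4 CPM per kb.

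The high-affinity binding proteins were also added up per length. Igfbp2 to Igfbp6 summed to 487, 475 and 461 CPM per kb in control libraries 1 to 3 and to 273, 264 and 265 CPM per kb in miR-182-5p libraries 1 to 3. The sums of the 2 groups were far apart, at means of 474 ± 13.3 and 267 ± 5.11 CPM per kb (SD, n = 3 each). Igfbp6 made up the largest part in both groups, 57.7% ± 0.317 and 64.0% ± 2.08 (SD, n = 3 each). The part of Igfbp5 was 8.75% ± 0.704 in control and 2.98% ± 0.344 in miR-182-5p adipocytes, and that of Igfbp4 was 24.9% ± 0.506 and 24.5% ± 1.71 (SD, n = 3 each). Igf1 came to 6.34 ± 0.229 per 100 of this sum in control and to 7.59 ± 0.637 in miR-182-5p adipocytes (SD, n = 3 each), with ranges of 6.13 to 6.59 and 6.89 to 8.13 that did not overlap. With 3 libraries in each group, 0.1 is the smallest p of a two-sided exact permutation test, so none is given, and transcript levels are not amounts of secreted protein.

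**Figure D4:**
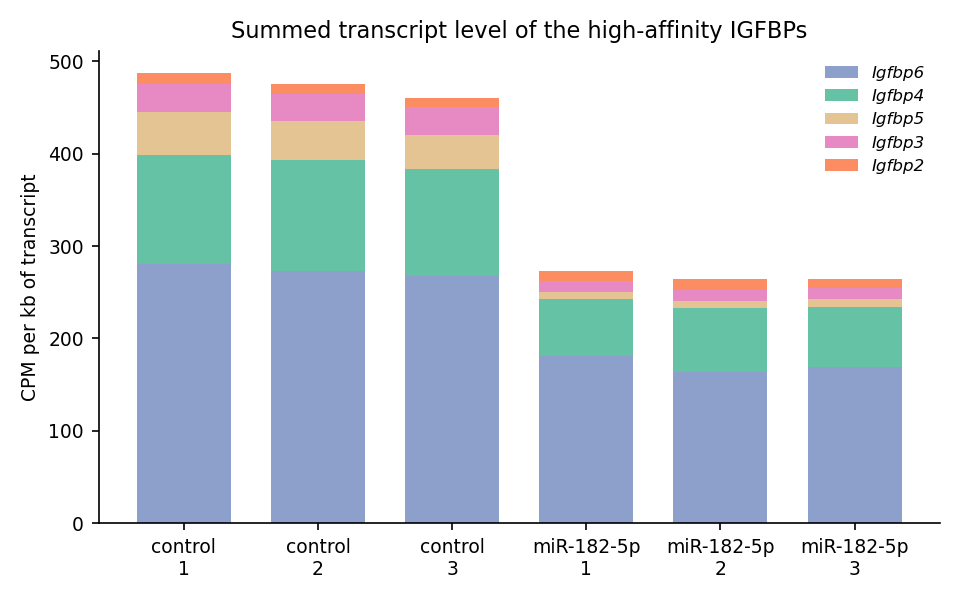
Summed level of the transcripts of the high-affinity IGF binding proteins in each library, in CPM per kb of the longest coding transcript, with each gene as a coloured layer. The control bars reach 461 to 487 and the miR-182-5p bars 264 to 273 CPM per kb, with Igfbp6 as the largest layer in every library.

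Igfbp2 and Igfbp5 are neighbours in the genome. Igfbp2 runs from 72824503 to 72852474 on the plus strand and Igfbp5 from 72857932 to 72874884 on the minus strand of chromosome 1 in GRCm38, so they meet tail to tail across 5457 bases with no gene between them. Of this pair, Igfbp5 fell 5.23-fold, and Igfbp2 did not pass the test. Igfbp3, on chromosome 11 from 7206086 to 7213923 on the minus strand, is the neighbour of Igfbp1, which was listed at 0 reads in all 6 libraries. With 3 reads as the limit that a count of 0 allows, Igfbp1 was below 0.104 to 0.116 CPM, counting error only. This limit, unlike the other levels, was computed on library sizes without TMM scaling. Igf2 and the noncoding RNA gene H19, an imprinted pair on chromosome 7, had log2 fold changes of -0.41 (not past the test) and -0.35 (edgeR adjusted p = 7.82e-05).

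Among all other genes tested with a mean of at least 1 CPM, the 3 with the highest Pearson r to each called family gene over the 6 libraries were listed. The libraries fall into 2 groups, so a high r mainly describes a similar step between the groups. For Igfbp5 these were Lum, which encodes the matrix proteoglycan lumican (r = 0.9999), Steap3, a metalloreductase (0.9995), and Adig, adipogenin (0.9995). For Igfbp3 they were Tacc1 (0.9998), Ctdsp1 (0.9998) and Slc43a3 (0.9997). For Igfbp4 they were Tgfbi, which encodes a matrix protein induced by TGF-β (0.9993), Gdf10, a BMP-family ligand (0.9992), and Prrg3 (0.9990), and for Igfbp6 they were Gabra3 (0.9991), Tnfrsf1b (0.9991) and Rilpl2 (0.9987).

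The wider pathway was described with 39 further genes picked for their roles, from growth hormone input to the kinases downstream of the receptor. Of these 35 were tested and 24 passed, 12 higher and 12 lower, which is 68.6%, compared with 46.7% of all genes tested. The median log2 fold change of the 35 was 0.02. Both cutoffs were passed by 4 genes, Ghr, Igfals and Shc1 lower and Stc2 higher, or 11.4%, compared with 7.45% of all genes tested. Igfbp1 and Igfbpl1 were at 0 reads, and Insrr and Irs4 were below the filter on low counts. Other genes of the pathway named below were chosen after their values were seen.

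Growth hormone acts through its receptor GHR and the kinase JAK2 on STAT5B, and Igf1, Igfals and Socs2 are well-known target genes of that route. Ghr had 504.1, 539.4 and 498.8 CPM in control libraries and 189.3, 208.9 and 216.7 CPM in miR-182-5p libraries. The groups were well apart, and the log2 fold change was -1.33 (standard error 0.045, edgeR adjusted p = 2.61e-11). TTGCCAA occurred in the 3′-UTR of 4 of the 34 tested pathway genes with a 3′-UTR, or 11.8%, compared with 12.5% of all such genes. Besides Ghr these were Pdpk1, Pik3ca and Stc1, with log2 fold changes of 0.14, -0.05 and 0.03. Of these, Pdpk1 passed higher, and Pik3ca and Stc1 did not pass. With TGCCAAA counted as well, 13 of the 34 (38.2%) held either 7-base match, compared with 20.4% of all 12517 genes. The called gene Stc2, which rose, was among the 13. The median 3′-UTR length was 2347 bases in the 34 genes and 1201 over all these genes. The coding sequence of Shc1, also called, held TTGCCAA at 2 places. The 3′-UTR of Ghr, of 1982 bases, held a 7-base match at base 1527. It is shown here because Ghr was the only called pathway gene with TTGCCAA in the 3′-UTR.
Ghr (chr15:3318209-3318215, minus strand): atttaccattTTGCCAAgacct

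Of the 5 genes of growth hormone input, 4 passed, 3 lower and 1 higher, where 23.5% of all genes tested passed lower and 23.2% higher. Socs2, an inhibitor of the receptor, fell from 21.2 to 14.5 CPM (log2 fold change -0.55, edgeR adjusted p = 1.87e-05), and Stat5b fell from 53.5 to 44.0 CPM (-0.28, edgeR adjusted p = 9.49e-05). Jak2 rose from 124 to 152 CPM (0.29, edgeR adjusted p = 6.61e-06). Igfals, which encodes the acid-labile subunit that joins IGFBP3 in blood, had 9.782, 11.33 and 7.548 CPM in control libraries and 4.830, 5.390 and 4.782 CPM in miR-182-5p libraries. It fell by 0.94 on the log2 scale (standard error 0.13, edgeR adjusted p = 4.82e-05), alongside the fall of Igfbp3.

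Among the 7 proteases that cut IGFBPs and their inhibitors, 3 passed higher and 1 lower, or 57.1%, near the 46.7% of all genes tested. Of the 3 higher, Htra3, a serine protease gene, passed in only 2 of 6 fits that left out a library. Stc2 encodes stanniocalcin 2, which inhibits PAPPA. It had 6.600, 7.428 and 7.050 CPM in control libraries and 13.02, 11.58 and 12.01 CPM in miR-182-5p libraries, a log2 fold change of 0.80 (standard error 0.082, edgeR adjusted p = 2.67e-06). Pappa itself rose from 159 to 207 CPM (0.38, edgeR adjusted p = 1.51e-06). Stc1, also counted among the inhibitors and at a higher CPM than Stc2, was at 22.1 and 22.5 CPM and did not pass (0.03, edgeR adjusted p = 0.792). Pappa and Stc2, but not Stc1, were higher where Igfbp4, whose product PAPPA cuts, was lower.

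Downstream of the receptor, 4 of 7 adaptors tested passed, 1 higher and 3 lower, or 57.1%, near the 46.7% of all genes tested. Shc1, which links receptors to the Ras pathway, was called, 1 of 7 where 7.45% of all genes tested were called. It had 157.1, 148.8 and 148.7 CPM in control libraries and 88.41, 85.70 and 85.01 CPM in miR-182-5p libraries, a log2 fold change of -0.81 (standard error 0.033, edgeR adjusted p = 1.59e-10). Its partner Grb2 had a log2 fold change of -0.39 (edgeR adjusted p = 3.03e-06). The insulin receptor substrates split: Irs1 fell from 108 to 83.3 CPM (-0.38, edgeR adjusted p = 3.31e-06), and Irs2 rose from 20.5 to 24.5 CPM (0.26, edgeR adjusted p = 0.00157). Insr, the insulin receptor, was at 154 and 156 CPM and did not pass (0.02, 95% interval -0.06 to 0.10, edgeR adjusted p = 0.712). Of 9 genes of PI3K and Akt, 7 passed, 4 higher and 3 lower, and none was called, where 46.7% of all genes tested passed and 7.45% were called. Igf2bp2, which encodes a protein that binds Igf2 messenger RNA, rose from 78.5 to 93.9 CPM (0.26, edgeR adjusted p = 2.54e-05). The genes of such proteins and H19 made a set of 4, of which 2 passed higher and 1, H19, lower. Over all genes tested 23.2% passed higher and 23.5% lower. Igf2bp3, the other that passed higher, passed in only 2 of 6 fits that left out a library.

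**Figure D5:**
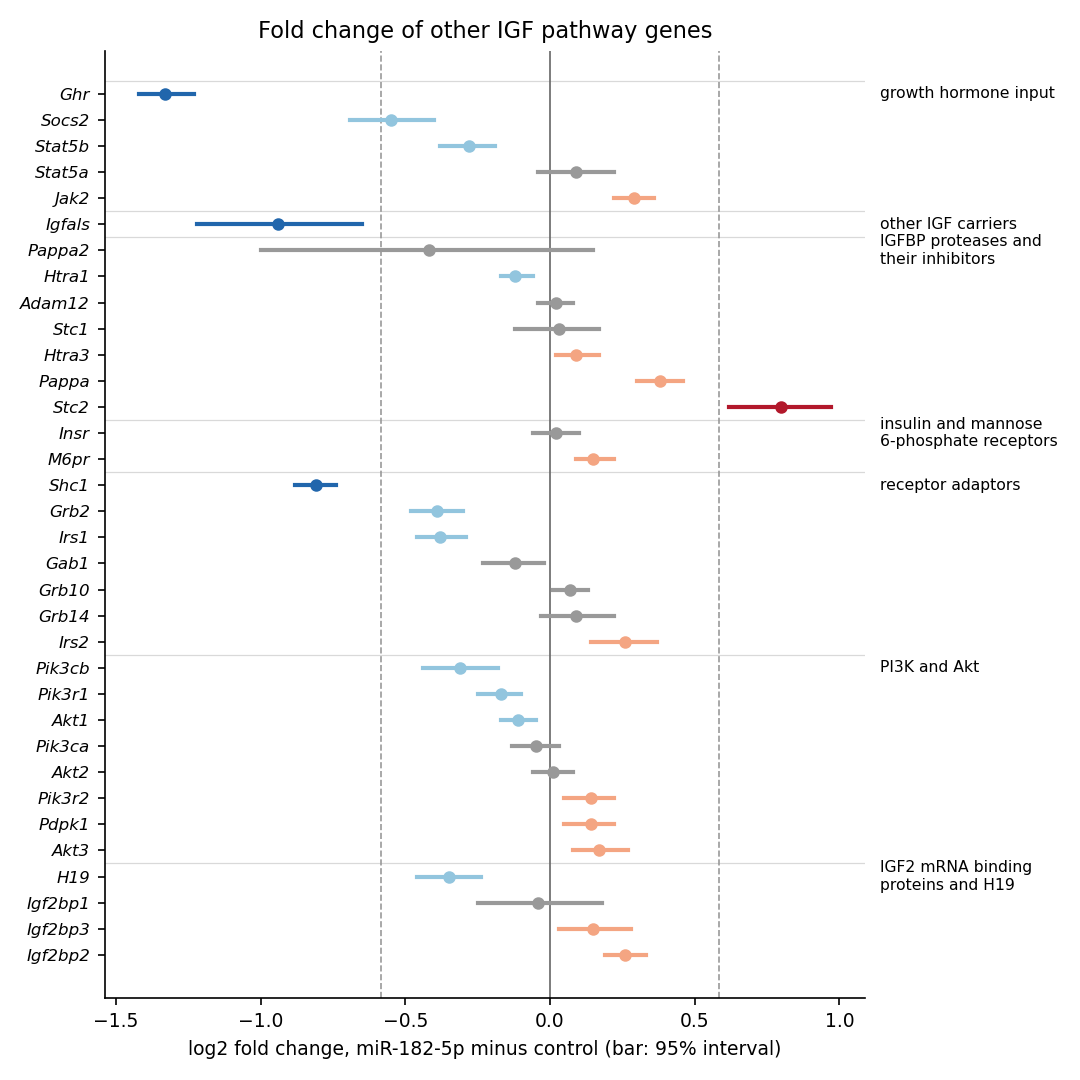
Log2 fold change, miR-182-5p minus control, of 34 of the 35 other IGF pathway genes tested, grouped by role, with 95% intervals (n = 3 each). Dashed lines mark a 1.5-fold change, dark colours genes past both cutoffs, light colours genes past the adjusted p alone and grey genes that did not pass: the dark genes are Ghr, Igfals and Shc1 to the left and Stc2 to the right.

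Markers of the cells in the culture moved with the group as well, and their counts stand beside 23.5% of all genes tested that passed lower and 5.48% that were called lower. Of 10 adipocyte markers 7 passed lower, 1 (Lep) passed higher and 2 (Fabp4 and Retn) were called lower. Plin1 (log2 fold change -0.06, edgeR adjusted p = 0.316) and Lipe (-0.09, edgeR adjusted p = 0.0801) did not pass. The summed level of the 10 was 6990 to 7340 CPM in control and 4800 to 5440 CPM in miR-182-5p libraries. Fabp4 was the largest part of this sum, at means of 3320 and 2070 CPM, and Adipoq was at 905.7 to 946.1 and 616.2 to 727.4 CPM. Of 8 stromal progenitor markers 7 were tested, 5 passed lower, 1 (Thy1) passed higher and 3 were called lower (Pdgfra, Cd34 and Pi16). Their summed level was 20300 to 21400 CPM in control and 19400 to 20200 CPM in miR-182-5p libraries, and 1480 to 1510 and 1190 to 1320 CPM without Col1a1, which held most of the reads. Macrophage markers summed to 12.6 to 14.3 and 11.6 to 14.3 CPM, with Itgam, Ptprc and Emr1 at or below 0.206 CPM in every library, and of 3 tested Lyz2 was called lower. Endothelial markers summed to 7.78 to 9.15 and 4.97 to 5.67 CPM, and Pecam1 was at or below 0.39 CPM. Of the 3 tested, Tek was called lower (6.05 to 2.43 CPM) and carried the fall of the sum, while Kdr was at 1.59 and 2.14 CPM and did not pass (edgeR adjusted p = 0.0899). Of 5 skeletal muscle markers Myod1, Ckm and Myh4 were at 0 reads, and Acta1, at 18.2 to 18.6 and 28.4 to 32.7 CPM, was called higher. The part of these marker changes in the IGF results was not tested, and in such bulk libraries fewer cells of a type and less RNA per cell cannot be told apart.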

How the data were processed

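Poly(A) RNA of control and miR-182-5p adipocytes was sequenced in 3 strand-specific libraries each. The authors deposited 1 list per library of raw read counts by gene symbol. The submitters' processing notes name bcl2fastq, TopHat2, HTSeq and mm9; versions, annotation and counting options are not given in the sources used here. Reads that the counting gave to no feature (12.7% to 13.0% of uniquely aligned reads) and ambiguous reads (0.65% to 0.67%) were left out, as were alignments that were not unique. Depth was 25869810 to 28796712 reads on genes, so genes such as Igf2 (54 to 92 reads) are measured less precisely than the others.

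Counts were normalized by TMM and tested in R 4.3.3 with edgeR 4.0.16 (filterByExpr with a minimum count of 10, glmQLFit, glmQLFTest, two-sided, group as the only term), adjusted over 13117 genes. The cutoffs of 1.5-fold and an adjusted p of 0.05 are those the study states. A pseudocount of 0.1 CPM was added before the log2 for Pearson r. DESeq2 1.42.0, limma-voom (limma 3.58.1), DESeq2 size factors, upper-quartile factors, no filter, at least 10 reads in every library, the replicate block, glmTreat, the adjusted p alone and leaving out each library were alternatives. The tests were first tried on simulated data. Replicates were no copies of each other (chi-square per degree of freedom 2.13 to 7.23).

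Named genes are the 10 family genes, pathway genes past both cutoffs and, for each called family gene, the 3 genes of at least 1 CPM with the highest r; other pathway genes and markers were named in addition, and 1 pathway gene is counted but not reported here. The family, the lists and the rules were chosen with earlier results of these data known. GENCODE M21 (GRCm38) held 22209 of the 22609 symbols, 1925 of them as an older name. Figures used Python 3.11.15, pandas 2.3.3, numpy 2.4.6 and matplotlib 3.10.9.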

Additional observations from a re-analysis of the deposited data

How the results depend on the processing

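Igfbp3, Igfbp4, Igfbp5 and Igfbp6 were called under all 7 other normalizations, filters, tools or the block and in all 6 fits that left out a library, and so were Ghr, Igfals, Shc1 and Stc2. The median log2 fold change of the family was -0.49 and ranged from -0.55 to -0.43 with a library left out. With a library left out, 4 to 5 family genes and 4 to 5 pathway genes were called, Igf1 and Socs2 being the additions. Over all genes, 902 to 1011 were called in these fits. By the adjusted p alone, without the 1.5-fold cutoff, 7 family genes and 24 pathway genes passed, where 6124 of all 13117 genes (46.7%) passed. Against a 1.5-fold change, glmTreat called 3 family genes, 2 pathway genes (Ghr and Shc1) and 298 of all genes, compared with 977. Without miR-182-5p library 1 the log2 fold change of Igfbp2 was -0.007 in place of 0.03 (up to 0.109 with another library left out), and without miR-182-5p library 3 that of Insr was -0.011 in place of 0.02 (up to 0.065); the cause was not tested, and neither gene passed in any of these fits. The place of Igfbp5 in the order per length in miR-182-5p adipocytes moved from 9 to 7 with all annotated exons, where it overlapped Igfbp2 at place 8. In the fit with a replicate block the median was -0.49, the same 4 family genes and 4 pathway genes were called, and 925 of all genes. The same-numbered libraries did not deviate together (mean r -0.102, compared with 0.051 for different numbers), so the numbers were not taken as pairs. Of the 10 family genes, depth limits Igf2 most, whose interval spans -0.78 to -0.05. The libraries show transcripts and neither secreted IGF nor binding protein.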
